A study of Homo sapiens with 2 samples.

Results

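The genes described here are the 10 members of the MYC, MAX and MXD network that the member rule lists, namely MYC, MYCL, MAX, MXD1, MXD3, MXD4, MXI1, MNT, MLX and MGA. They were taken by symbol from a table of 57820 gene identifiers, and all 10 were found. The samples are 2 libraries of HCT116, a cell line from a human colorectal carcinoma: 1 from CREB1 wild-type cells and 1 from CREB1 knockout cells. The knockout cells are 1 clone from a lone cell, obtained, according to the labels' protocols, with PX461, a plasmid that carries nickase Cas9 and guide RNAs against CREB1. The sources used here do not say whether the wild-type culture was itself a clone. Both cultures grew in DMEM with fetal bovine serum, penicillin and streptomycin, and ribosomal RNA was removed before strand-specific sequencing. The values are expected counts, estimated reads per gene that can be fractional.

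MYC is a transcription factor of the basic helix-loop-helix leucine zipper class and binds DNA, at the E-box letters CACGTG, as a dimer with MAX. The MXD proteins, MXI1 and MNT compete with MYC for MAX and recruit SIN3 and histone deacetylase complexes that repress transcription. MLX forms a parallel dimer set with the glucose-sensing factors MondoA (gene MLXIP) and ChREBP (gene MLXIPL), and MGA joins MAX within a polycomb complex, PRC1.6. In colorectal carcinoma MYC is a well-known target of Wnt signalling, and cAMP response elements bound by CREB1 are known from many promoters.

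Promoter letters are shown first because MLX, MXD4 and MNT were the members whose promoter windows, where one was found, held the E-box CACGTG, the site of the network's own dimers. RefSeq windows (GRCh38.p14) of 300 bases, from 250 before to 50 after the transcript start, were found for 9 of the 10 members, all but MYC, and numbered 14. Each was searched on both strands for CACGTG, for the full cAMP response element TGACGTCA and for its core TGACG, whose letters the full element contains. Each sequence below runs 5′ to 3′ from the far end of the window to the first annotated exon, with the matched letters in capitals. The MLX stretch is chr17:42566850-42567067 on the plus strand, with the core TGACG and then CACGTG in capitals. The MXD4 stretch is chr4:2262295-2262359 and the MNT stretch chr17:2401119-2401310, both on the minus strand with CACGTG in capitals.
MLX: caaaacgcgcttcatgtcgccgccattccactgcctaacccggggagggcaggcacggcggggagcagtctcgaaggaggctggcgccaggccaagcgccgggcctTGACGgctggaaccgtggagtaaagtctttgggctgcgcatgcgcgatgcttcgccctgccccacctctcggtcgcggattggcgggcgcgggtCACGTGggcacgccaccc
MXD4: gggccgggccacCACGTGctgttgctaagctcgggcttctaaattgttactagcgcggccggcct
MNT: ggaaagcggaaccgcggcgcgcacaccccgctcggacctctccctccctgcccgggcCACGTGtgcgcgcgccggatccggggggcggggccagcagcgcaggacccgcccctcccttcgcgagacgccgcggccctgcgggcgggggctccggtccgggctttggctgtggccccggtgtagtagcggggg

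In these windows CACGTG began 50 bases before the transcript start of MLX, 193 before that of MNT and 238 before that of MXD4. Of all 35116 RefSeq windows of this length, 7.26% held CACGTG. The core TGACG was found in the windows of MLX and MGA, and in 24.6% of all windows. None of the 14 windows of these 9 members held TGACGTCA, which 1.85% of all windows held. Among the other network genes, the window of MLXIP held that full element 57 bases before the start. The shares of all windows are per window, also for genes not expressed here, while a member with several windows was counted if any matched. Per expressed gene (defined below), CACGTG was in a window of 1213 genes and in none of 8265. For TGACG these numbers were 3898 and 5580, and for TGACGTCA 369 and 9109. A match describes letters in a window and does not show binding.

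Expected counts totalled 34511071 with wild-type CREB1 and 31178312 in the knockout. The targeted gene CREB1 had 614 wild-type and 499 knockout counts, a log2 ratio of -0.23 (95% counting interval -0.40 to -0.05). Counts over a whole gene cannot reveal a small edit, and the genotype label is therefore unchecked by them. Of 10 colon carcinoma markers, 7 had a mean of at least 1 CPM, among them EPCAM (3129 and 2929 counts) and CDX2 (327 and 290 counts). The rest, CDX1 (0 counts in both), LGALS4 (5 and 2 counts) and VIL1 (12 and 9 counts), were at or near 0. The 5 immune markers found in the table summed to 0.297 CPM with wild-type CREB1 and 0.688 CPM in the knockout, with PTPRC and CD3E at 0 in both. The 5 fibroblast and endothelial markers summed to 2.62 and 2.88 CPM, nearly all of it COL1A1, with COL1A2 and CDH5 at 0. CPM here means counts scaled to library size with the TMM method, which sets the bulk of genes equal between the libraries. In these bulk libraries fewer cells of a kind and less RNA per cell cannot be told apart.

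In the knockout library MYC was 2.18-fold lower and was the only member past 2-fold. MYCL, MXI1 and MXD3 had ratios in the same direction between 1.38-fold and 1.65-fold lower, MLX was 1.37-fold higher, and MAX, the shared partner, was within its counting error. A gene was called when its mean CPM was at least 1, its ratio at least 2-fold and its 95% counting interval excluded no difference. By that rule 1 of the 10 members was called lower and 0 were called higher. Over all 12886 expressed genes the same rule called 1.64% lower and 1.28% higher, together 2.92%. With 1 library per genotype no difference has a replicate check, no p-value was computed, and the intervals cover counting error only. By counting error alone, 51.9% of all expressed genes had an interval that excluded no difference, so an interval apart from 0 is common in this pair.

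MYC (ENSG00000136997.10), the network's central activator, had 4334 counts with wild-type CREB1 and 1889 counts in the knockout. These are 129 and 59.1 CPM. The log2 ratio was -1.12 (interval -1.20 to -1.05), and 1.22% of expressed genes had a ratio as low or lower. MYC was thus the highest of the 10 in both libraries and the member with the lowest ratio. The call was kept under each of 4 other scalings, with log2 ratios from -1.15 to -1.05.

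MYCL (ENSG00000116990.9), the MYC paralog first found in lung carcinoma, had 195 and 112 counts, or 5.80 and 3.50 CPM. Its log2 ratio was -0.72 with a wide interval of -1.07 to -0.38. MYCN, the paralog known from neuroblastoma, had 0 counts in both libraries, which allows at most 3 counts in each. Both detected MYC genes were lower in the knockout library, and the intervals of MYC and MYCL overlapped. MYCL was among the 3 members, with MYC and MXI1, that a threshold of 1.5-fold called lower. At 1.5-fold 5.50% of all expressed genes were called lower and 5.25% higher.

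MAX (ENSG00000125952.14), the obligate partner, had 900 and 813 counts, or 26.7 and 25.4 CPM. The log2 ratio of -0.07 had an interval of -0.21 to 0.07 that included no difference. With total-count scaling it was -0.00015. The 2 libraries thus held MAX at levels that counting error could not separate.

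**Figure D1:**
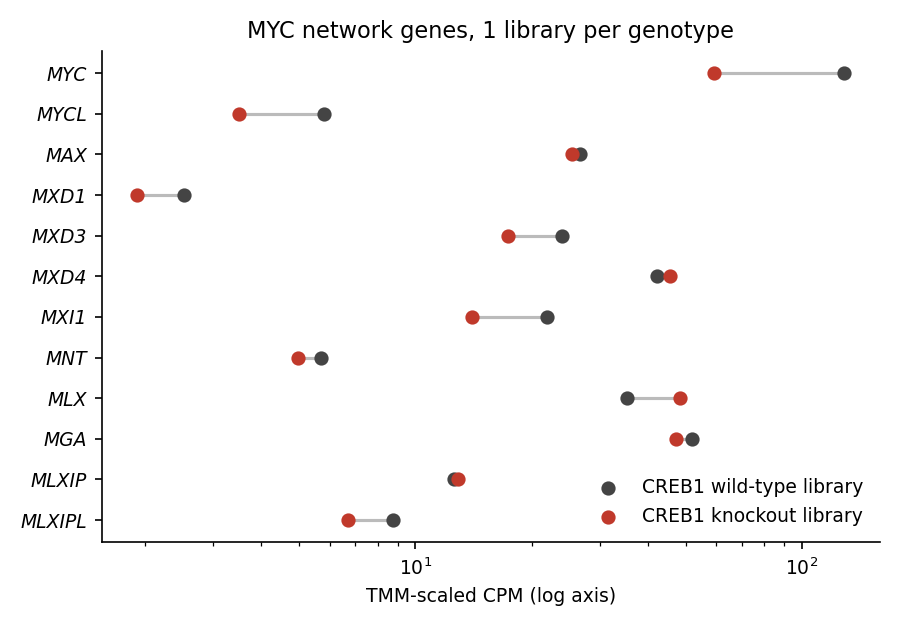
Levels of the 10 members and of MLXIP and MLXIPL on the x axis (TMM-scaled CPM, log axis), with 1 point per library and a line joining the wild-type (grey) and knockout (red) values of a gene. MYC has the longest distance towards low values, from 129 to 59.1 CPM, while MLX lies higher in the knockout library, at 48.3 against 35.3 CPM.

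Among the MXD genes and MNT, whose products oppose MYC, the ratios differed by member. MXI1 (ENSG00000119950.16), also called MXD2, had 738 and 449 counts, and its log2 ratio was -0.64 (interval -0.82 to -0.47). MXD3 (ENSG00000213347.6), linked to proliferating cells, had 807.36 and 556.1 expected counts and a log2 ratio of -0.46 (interval -0.62 to -0.31). MXD4 (ENSG00000123933.10) had 1419 and 1458 counts, or 42.2 and 45.6 CPM. The MXD4 log2 ratio of 0.11 had an interval of 0.01 to 0.22, which included 0 with DESeq2 size factors and with upper-quartile scaling. So MXI1 and MXD3 were lower in the knockout library with intervals clear of 0, and MXD4 was at nearly the same level in both.

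MXD1 (ENSG00000059728.6), the founding MXD gene and known from differentiating cells, had 85 and 61 counts, the fewest of the 10. Its log2 ratio was -0.40 with an interval from -0.90 to 0.09. MNT (ENSG00000070444.10), the broadly expressed antagonist of MYC, had 192 and 159 counts and a log2 ratio of -0.20 (interval -0.51 to 0.11). Neither difference was detectable at this depth. Summed over MXD1, MXD3, MXD4, MXI1 and MNT, the antagonists held 96.3 CPM with wild-type CREB1 and 83.9 CPM in the knockout, a log2 ratio of -0.20.

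The fractional counts of MXD3 show reads shared with other genes. Its GENCODE exons share 926 bases with RAB24 on the same strand, a gene with 198.64 and 155.9 expected counts and a log2 ratio of -0.28 (interval -0.59 to 0.03). They share 1158 bases with PRELID1 on the opposite strand, which had a log2 ratio of -0.10. The MXD3 value is therefore uncertain in how reads were divided, and the part of this division in its ratio was not tested. MXD1 exons share 237 bases with SNRNP27 on the same strand (305 and 264 counts), and the counts of both genes were whole.

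MLX (ENSG00000108788.7), the partner of MondoA and ChREBP, had 1187 and 1543 counts, or 35.3 and 48.3 CPM. The log2 ratio was 0.45 (interval 0.34 to 0.56), the highest of the members, and 9.33% of expressed genes had a ratio as high or higher. MLXIP, encoding MondoA, had 424 and 413 counts, a log2 ratio of 0.04 (interval -0.16 to 0.23). MLXIPL, encoding ChREBP, had 295 and 214 counts, a log2 ratio of -0.39 (interval -0.65 to -0.13). The MLX interval did not overlap that of either partner, so MLX and the genes of its partners differed in ratio by more than counting error. The MLX exons share 770 bases with PSMC3IP on the opposite strand, and the sources used here do not give the strand setting of the counting.

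MGA (ENSG00000174197.12), the large MAX partner of PRC1.6, had 1751 and 1513 counts, or 52.0 and 47.3 CPM. Its log2 ratio was -0.14 with an interval of -0.24 to -0.04. With total-count scaling the interval was -0.16 to 0.04 and included no difference. MGA was the member with the second highest count in the wild-type library, but its transcript is by far the longest of the 10.

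**Figure D2:**
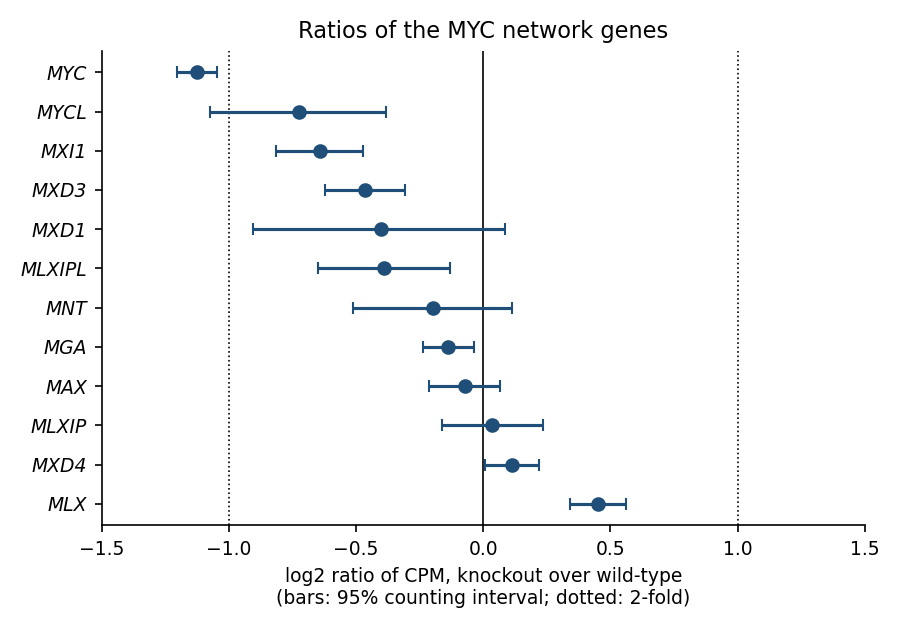
Log2 ratios of CPM, knockout over wild-type, on the x axis, with 95% counting intervals as bars and dotted lines at 2-fold, for the 10 members, MLXIP and MLXIPL, ordered by ratio. MYC is the point left of the 2-fold line at -1.12, and MLX is the rightmost at 0.45.

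Levels of different genes were compared per length, as CPM per kilobase of merged GENCODE exons. In the wild-type library MYC was highest at 42.9 CPM per kilobase, followed by MLX at 8.28. MAX (6.04) and MXD4 (5.97) came next with overlapping counting intervals, then MXI1 (4.76) and MXD3 (4.65), whose intervals also overlapped. MGA stood at 2.95, MYCL at 1.14, MNT at 0.654 and MXD1 at 0.398 CPM per kilobase, each apart from the next. The order in the knockout library was MYC (19.7), MLX (11.3), MXD4 (6.46), MAX (5.74), MXD3 (3.37), MXI1 (3.05), MGA (2.68), MYCL (0.692), MNT (0.570) and MXD1 (0.300). There the pairs MXD4 with MAX, MXD3 with MXI1, MXI1 with MGA and MYCL with MNT overlapped. The order in the middle depends on the length used: per kilobase of the longest coding transcript, MXD3 (10.6) came right after MLX (13.6) in the wild-type library.

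MYC took a smaller share of the network's transcripts in the knockout library. Per length, MYC made up 55.2% of the 10 members' summed level with wild-type CREB1 and 36.5% in the knockout. MLX made up 10.6% and 21.0%, MXD4 7.68% and 12.0%, and MAX 7.76% and 10.7%. In plain counts MYC held 4334 of 11608 counts of the members (37.3%, exact 95% interval 36.5% to 38.2%) and 1889 of 8553 (22.1%, interval 21.2% to 23.0%). As MYC is part of the total, a member with equal levels in both libraries takes a larger share of the knockout total.

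The transcript ratio of MYC to its antagonists was lower in the knockout library. Protein levels were not measured. Per length, the level of MYC was 2.61 times the summed level of MXD1, MXD3, MXD4, MXI1 and MNT with wild-type CREB1 and 1.43 times in the knockout library. Per kilobase of the longest coding transcript the same ratios were 1.88 and 1.03, and in plain counts 1.34 and 0.704. Whether MYC exceeded the antagonists in the knockout library thus depends on the scale. Relative to MAX alone, MYC stood at 7.11 times with wild-type CREB1 and 3.43 times in the knockout. Without MYC, the other 9 members summed to 216 and 208 CPM, a log2 ratio of -0.05. That small ratio joins differences in opposite directions. With TMM scaling MLX (log2 ratio 0.45) and MXD4 (0.11) had intervals above 0. MYCL (-0.72), MXI1 (-0.64), MXD3 (-0.46) and MGA (-0.14) had intervals below 0. Those of MAX, MXD1 and MNT included 0. The summed level thus differed mainly at MYC, which does not mean that the other members were unchanged.

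Neighbouring genes were compared because a difference shared along a chromosome would show beside the member's own. For MYC, the 20 nearest expressed protein-coding genes in GRCh38 gene order, 10 on each side, had a median log2 ratio of -0.02. None of the 20 was called and none had a ratio as low as that of MYC. The lowest was SQLE, an enzyme of cholesterol synthesis, at -0.96 (1424 and 697 counts), and the next was NDRG1, a gene known to be repressed by MYC, at -0.60 (2118 and 1326 counts). FAM84B and FAM49B, the nearest on either side, had log2 ratios of 0.46 and -0.03. The low MYC value was thus not shared by its neighbours as a group.

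For MLX the pattern was different. The 3 nearest expressed protein-coding genes on each side all had higher levels in the knockout library, with a median log2 ratio of 0.91, a range of 0.57 to 1.54 and 6 of 6 intervals above 0. The next 7 genes on each side had a median of -0.02, and 4 of those 14 had an interval above 0. These nearest genes were picked out after their values had been seen. COASY, which encodes an enzyme of coenzyme A synthesis, had 973 and 1977 counts, and its log2 ratio of 1.10 was called. NAGLU, a lysosomal glucosaminidase gene, had 429 and 895 counts, and HSD17B1, an estradiol-forming dehydrogenase gene, had 70 and 195 counts. Their log2 ratios of 1.13 and 1.54 were called too.

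On the other side of MLX, PSMC3IP, a meiotic recombination factor that shares exon bases with MLX, had 421 and 621 counts and a log2 ratio of 0.63. RETREG3, a receptor of endoplasmic reticulum turnover, followed at 0.72 (1096 and 1711 counts) and TUBG1, which encodes gamma-tubulin, at 0.57 (2044.38 and 2892.62 expected counts). MLX itself, at 0.45, was the lowest of these 7 consecutive expressed genes. Whether the MLX value is part of a difference of the whole stretch was not tested. Around the remaining 8 members the 20 neighbours had medians between -0.08 and 0.08, and the members with the lowest ratios after MYC lay in stretches near 0, with medians of -0.02 for MYCL and -0.01 for MXI1.

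**Figure D3:**
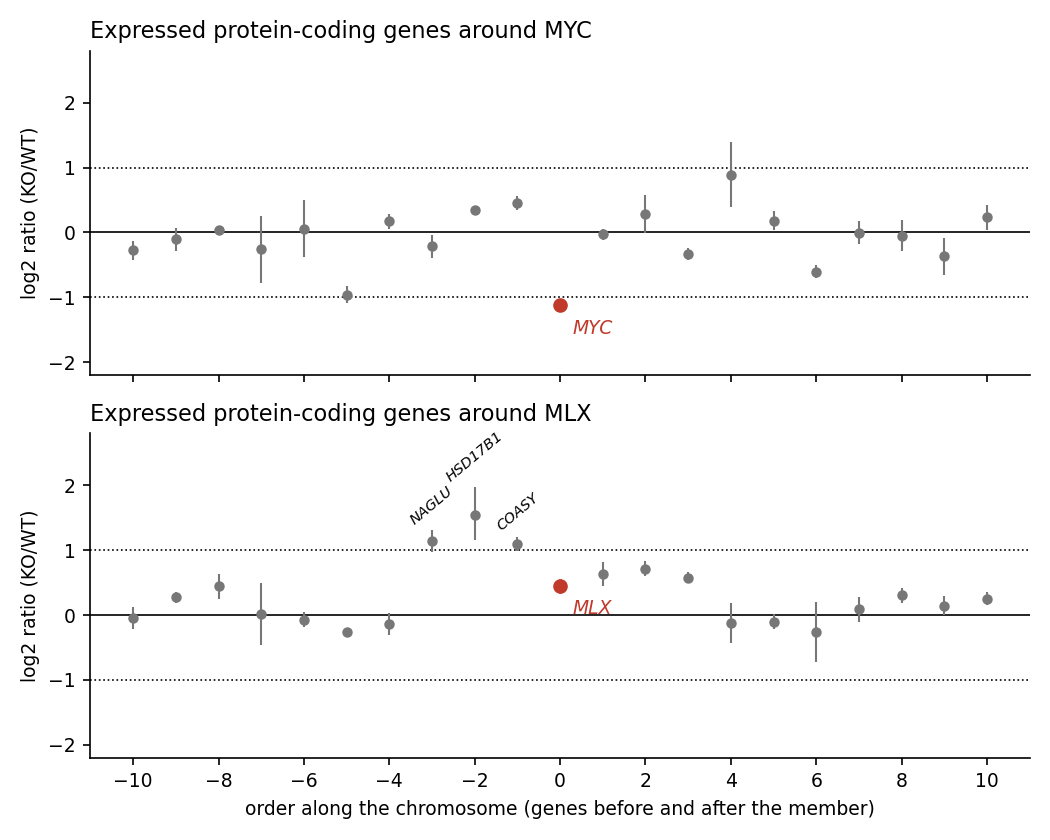
Log2 ratios, knockout over wild-type, of the 10 expressed protein-coding genes on each side of MYC (top) and MLX (bottom), plotted by gene order on the x axis, with 95% counting intervals as bars and dotted lines at 2-fold. MYC (red) lies below all 20 of its neighbours, while MLX (red) lies within a run of higher genes whose 3 called members are named.

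The genes that act with the network or are known as its targets were compared next, from lists of known partners and targets. Each list is given by its counts and its median log2 ratio. Over all 12886 expressed genes 48.8% lay below 0, the median was 0.01 and 2.92% were called, so these are the values to read the lists against. With a called share that low, 0 called in a short list says little about it. With total-count scaling all values shift up by about 0.07, and 39.1% of all genes then lay below 0. Some genes are in more than 1 list.

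Genes widely reported as activated by MYC for growth, mostly of the nucleolus, had small ratios on the low side. Of 52 expressed members, 41 lay below 0 and 11 above it, and the median log2 ratio was -0.14. None was called, beside 2.92% of all genes, and the range was -0.49 to 0.28. The lowest were HK2, a hexokinase (-0.49, 470 and 317 counts), TMEM97, a sterol-linked membrane protein (-0.46, 1058 and 729 counts), and EXOSC5, a subunit of the RNA exosome (-0.46, 958 and 661 counts). With total-count scaling 34 of the 52 lay below 0 and the median was -0.07.

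Of 21 genes for nucleotide and polyamine synthesis, 15 lay below 0, with a median of -0.09 and 0 called. Under total-count scaling 11 of the 21 lay below 0 and the median was -0.01. IMPDH2, the enzyme that commits to guanine nucleotides, had 11391 and 5735 counts and a log2 ratio of -0.92 (interval -0.96 to -0.87), just short of 2-fold. ATIC, of purine synthesis (0.67, 483 and 732 counts), and CAD, of pyrimidine synthesis (0.61, 1990 and 2886 counts), were on the other side of 0. The list thus held large ratios in both directions. The 20 neighbours of IMPDH2 had a median of 0.04, and none had a ratio as low as its own.

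Among 12 expressed cell cycle genes reported as MYC targets, 7 lay below 0 and the median was -0.10, with 0 called. With no expression filter, or at a mean CPM minimum of 5, that median was -0.01. The members farthest from 0 were the S phase activator E2F1 (-0.45, 880 and 612 counts), CCNE2, a cyclin E (0.43, 286 and 366 counts) and E2F3 (0.41, 489 and 617 counts). Of 11 expressed genes known to be repressed by MYC, 8 lay above 0 and 3 below, and the median was 0.18, with 0 called. In that list THBS1, a matrix protein that restrains vessel growth, stood at 0.57 (160 and 226 counts) and TGFBR2, a TGF-beta receptor, at 0.45 (571 and 739 counts). NDRG1, the neighbour of MYC named above, stood at -0.60.

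The cofactors of MYC mostly lay above 0. Of 16 members, 11 were above 0 and 5 below, the median was 0.25 and 0 were called. The acetyltransferase CREBBP, also a coactivator of CREB1, had 299 and 497 counts and a log2 ratio of 0.81. TRRAP, the scaffold through which MYC recruits acetyltransferases, had 1302 and 1970 counts (0.67), and EP400, of the same complexes, 241.28 and 348.83 expected counts (0.61). Of 12 genes for MYC protein turnover, 8 lay above 0, with a median of 0.18 and 0 called. USP36, a nucleolar deubiquitinase of MYC, was the lowest at -0.66 (758 and 456 counts), but its 20 neighbours on chromosome 17 had a median of -0.62, with 18 of 20 below 0. PPP2R5A, a phosphatase subunit, stood at 0.58 (915 and 1299 counts) and the ubiquitin ligase HUWE1 at 0.38 (5545 and 6836 counts).

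Genes upstream of MYC in colon cells had a median of 0.17, with 11 of 16 expressed members above 0 and 0 called. The median was 0.07 with no expression filter or at a mean CPM minimum of 5. MED12, of the Mediator kinase module, stood at 0.86 (360 and 621 counts) and TCF7L2, the Wnt factor that binds MYC enhancers, at 0.65 (246 and 368 counts). Of the 16, 8 had an interval above 0 and 2 had one below it. The list was not split by whether its genes raise or lower MYC, so its median gives no direction for MYC.

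The corepressors of the MXD proteins and MNT had small ratios. Of 12 members, 10 lay above 0 and the median was 0.09, with ARID4A (0.45, 135 and 175 counts), ARID4B (0.38, 732.1 and 907.78 expected counts) and SIN3A, the scaffold bound by MXD proteins (0.27, 820 and 938 counts), farthest from 0. The PRC1.6 partners of MGA had a median of -0.05, with 7 of 12 below 0. That median turned to 0.03 with total-count scaling, so no direction can be given. TFDP1, the dimer partner of E2F6 (-0.29), YAF2 (-0.27) and RING1, a ubiquitin ligase (-0.27), were farthest from 0. No gene of either list was called.

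Germ cell genes that MGA and PRC1.6 keep silent were near 0 in both libraries. None of 14 reached a mean of 1 CPM, and together they summed to 0.862 CPM with wild-type CREB1 and 1.44 CPM in the knockout. DDX4, DAZL, SYCP1, TEX101 and SLC25A31 had 0 counts in both. TDRD6 had the most, with 13 and 24 counts, and its counting interval included no difference. TAF7L, with 0 and 7 counts, was the only one of the 14 whose interval excluded it, on very few counts.

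The list of MLX and MondoA targets was too short for a summary, with 3 of its genes expressed. ARRDC4, an arrestin-domain gene that MondoA with MLX activates, had 77 and 23 counts, and at 3.14-fold lower (log2 ratio -1.65, interval -2.41 to -0.98) it was the called member. KLF10 stood at 0.74 (1116 and 1777 counts) and ACACB, an acetyl-CoA carboxylase, at 0.23 (283 and 315 counts), while PKLR and FGF21 had 0 counts in both. The 20 neighbours of ARRDC4 had a median of 0.01, and none had a ratio as low. So ARRDC4 lay below 0 while MLX lay above it and MLXIP near it. ARRDC4 rests on few counts, 0.719 CPM in the knockout library.

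**Figure D4:**
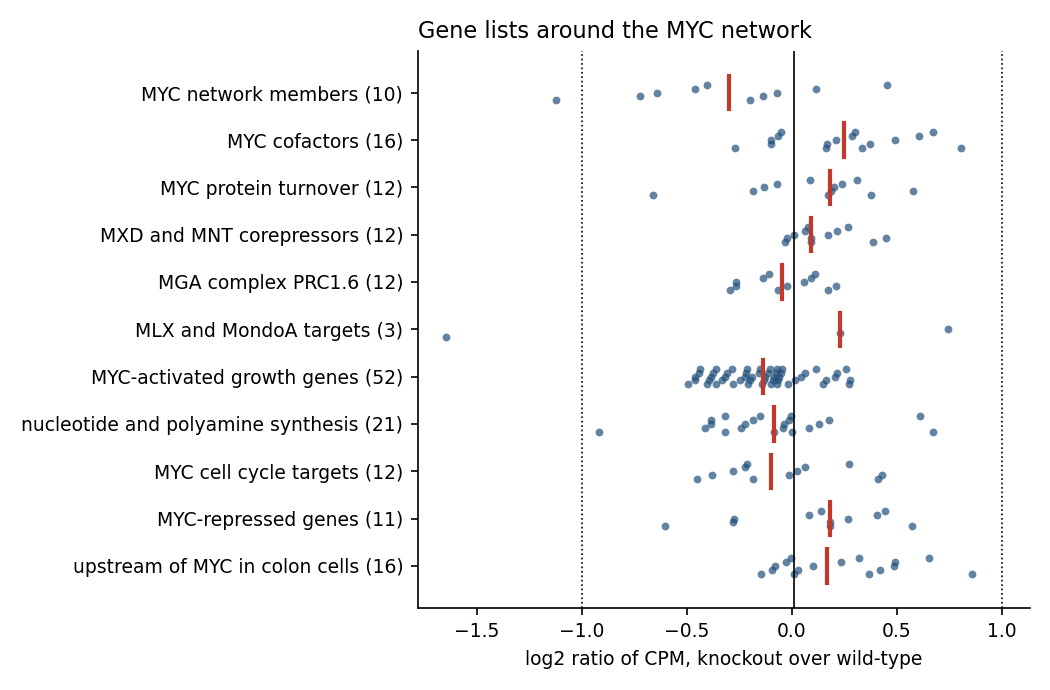
Log2 ratios, knockout over wild-type, of the expressed genes of each list on the x axis, with 1 point per gene, a red bar at each list's median, the number of expressed genes in brackets, a solid line at the median of all expressed genes and dotted lines at 2-fold. Growth genes crowd just left of the line (median -0.14), cofactors lie mostly to the right (median 0.25), and MYC and ARRDC4 are the points past 2-fold.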

How the data were processed

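RSEM 1.2.26, STAR 2.4.2a, cutadapt 2.0 and the build hg19 are named per the submitters' processing notes. The sources used here give no annotation release, strand setting or filter. The deposited values are expected counts per gene, unscaled, which RSEM estimates by dividing shared reads; they were rounded here. No coordinates of hg19 are printed. Names, exon lengths and gene order came from GENCODE 29 (GRCh38), and 52338 of 57820 identifiers (90.5%) matched. The others held 37.0% of wild-type and 35.2% of knockout counts and stayed in the totals.

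Scaling was by TMM in edgeR 4.0.16 (R 4.3.3), with a prior count of 0.5 for log2 ratios. Intervals are exact conditional binomial (Clopper-Pearson, 95%) and treat reads as independent. Levels per kilobase have exact Poisson intervals. The script was tested on simulated counts. Alternatives were 4 other scalings (total counts, DESeq2 1.42.0 size factors, TMM on coding genes, upper quartile), a prior count of 2, unrounded counts, other filters, a 1.5-fold threshold and other lengths.

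The members and the 16 lists were chosen with earlier results of these data known. Of 215 list symbols, TXNIP and PECAM1 had no match by name. Named beside the members were CREB1, each list's called genes and, where fewer than 3 were called, those farthest from 0 until 3 were reached. A gene that this rule selects is not reported here. Genes named outside that rule, such as neighbours, overlapping genes, markers and genes at 0, were chosen after their values were seen. A comparison of the members' proteins was not made.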

Additional observations from a re-analysis of the deposited data

How the results depend on the processing

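The log2 ratios of the 10 members stayed within their counting intervals under 4 other scalings, a prior count of 2 and unrounded counts, and each kept its direction. The number of genes called higher and lower depended on the filter and the fold: 451 and 635 with no expression filter, 75 and 62 where the mean CPM had to reach 5, and 677 and 709 at 1.5-fold, against 165 and 211. No paired analysis was possible because there is 1 library per genotype, and no replicate could be left out. With the mean in place of the median, the list of MYC protein turnover stood at 0.09, that of corepressors at 0.15 and that of MYC-repressed genes at 0.10. The median over the members was -0.30, and -0.17 at a mean CPM minimum of 5. The members' shares in the knockout library depended on the length used. Per kilobase of the longest coding transcript 8 of the 10 moved past their counting intervals, and without length scaling 6 did. Counting depth limits MXD1 most, which had the fewest counts and the widest interval of the members.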

Other observations

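Ratios were also set beside promoter letters over all genes, a description chosen after the data had been seen. The 1213 expressed genes with CACGTG in a RefSeq promoter window had a median log2 ratio of 0.01, as had the 8265 without it. Of those with the E-box, 14 were called lower (1.15%) and 8 higher, against 128 (1.55%) and 99 of those without. The 369 expressed genes with TGACGTCA had a median of -0.05, against 0.01 for 9109 genes without it, and 8 and 134 of them were called lower (2.17% and 1.47%). At a mean CPM minimum of 5 the order of these shares turned, with 1 of 324 and 42 of 7464 genes called lower (0.309% and 0.563%). With total-count scaling the medians were 0.02 and 0.09.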
